A study of Sus scrofa with 18 samples.

Results

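Mature microRNAs (miRNAs) in pig backfat were often read as longer molecules that kept the annotated 5′ start and carried up to 3 further bases of their own hairpin at the 3′ end. These 3′ templated longer forms were taken as the entries of the deposited table listed as shorter or longer variants, with the same start as the exact entry of the same precursor and mature miRNA and a later end. Each sequence was counted once per mature miRNA. That gave 298 forms of 17623 in the whole table, or of 1840 exact and length forms, under 170 of the 225 mature miRNAs that had an exact entry. A further 15 mature miRNAs of the table had no exact entry and could not be assessed. Of the 298 forms, 169 carried 1 added base, 99 carried 2 and 30 carried 3, and no longer extension was listed. Whether the authors' processing set this limit of 3 bases is not stated in the sources used here, so longer extensions were not assessed.

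The 18 small RNA libraries came from Italian Large White pigs, 1 library per numbered animal. The p-values given here therefore measure the spread between animals together with that between library preparations. Backfat, the subcutaneous fat of the back, was deposited to a high degree in 9 of the pigs (5 castrated males, 4 females). It was deposited to a low degree in the other 9 (4 castrated males, 5 females). Housing and diet were common to all pigs, weight was in the range of 150 to 160 kg, and age was 235 to 250 days in the high and 233 to 249 days in the low class. The labels name no treatment or genotype beside castration of the males.

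A miRNA is cut from a hairpin precursor. Drosha cuts the base of the hairpin and Dicer cuts near the loop, so the 3′ end of a miRNA on the 5p arm is usually made by Dicer and that of a 3p arm by Drosha. A cut a base or so farther along gives a longer read whose added bases match the hairpin, called templated, whereas terminal transferases add bases, most often U or A, that need not match it. The seed, which directs target pairing, lies near the 5′ end and is therefore the same in all of these forms.

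The sequences that hold most of the reads, and those on which the comparisons between classes turn, are printed as DNA letters from the deposited table, 5′ to 3′. Capitals mark the seed (bases 2 to 8) and the added bases; an annotated sequence has the seed alone in capitals.
miR-10b annotated: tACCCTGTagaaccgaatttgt
miR-10b +G: tACCCTGTagaaccgaatttgtG
miR-10b +GT: tACCCTGTagaaccgaatttgtGT
miR-10a-5p +G: tACCCTGTagatccgaatttgtG
miR-143-3p +G: tGAGATGAagcactgtagctcG
miR-30a-5p +CT: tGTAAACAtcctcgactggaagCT
miR-30c-5p +T: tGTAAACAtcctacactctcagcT
let-7i annotated: tGAGGTAGtagtttgtgct
let-7i +GT: tGAGGTAGtagtttgtgctGT
let-7i +GTT: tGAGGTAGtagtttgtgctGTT
let-7a annotated: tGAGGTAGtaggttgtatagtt
miR-21 +C: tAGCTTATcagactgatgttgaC
miR-21 +CT: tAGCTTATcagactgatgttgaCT
miR-146b +TGT: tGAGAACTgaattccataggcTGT
miR-199a-5p annotated: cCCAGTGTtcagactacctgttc
miR-199b-5p +C: cCCAGTGTttagactatctgttC
miR-103 +AA: aGCAGCATtgtacagggctatgaAA
miR-127 +G: tCGGATCCgtctgagcttggctG
The miR-10 pair share a seed, as do miR-30a-5p and miR-30c-5p, the let-7 members, and the miR-199 pair.

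In units of 1000000, the libraries held 9.60 to 34.6 reads over distinct sequences, of which 7.79 to 28.5 were exact or length forms and 0.691 to 2.87 were 3′ longer forms. Depth overlapped between the classes (11.7 to 28.3 in high and 9.60 to 34.6 in low pigs, in the same unit, exact two-sided permutation p = 0.464). Among marker miRNAs of other cell types, the 4 listed skeletal muscle miRNAs summed to 50.1 to 159 reads per 1000000 exact plus length reads in high pigs (median 81.2) and 85.9 to 246 in low pigs (median 134.5, exact two-sided permutation p = 0.0256, unadjusted over 7 marker lists). The 3 red blood cell miRNAs summed to 3432 to 5380 in high and 2396 to 9767 in low pigs (p = 0.948 by the same permutation test), and the 3 listed white blood cell miRNAs to 1124 to 3290 and 1276 to 3184 (permutation p = 0.545). The endothelial pair summed to 15980 to 39070 and 19860 to 43570 reads per 1000000. miR-205 of epithelium stood at 1.67 to 18.6 and 2.41 to 52.6, the neuronal pair at 85.3 to 195.6 and 64.9 to 154.3, and miR-122 of liver at 0 to 8.63 and 0 to 37.0. Their part in the results below was not tested. No miRNA is known that marks fat cells alone, so the tissue label was not checked by a marker of its own.

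Longer forms made up 10.6% ± 0.786 (SD, n = 18) of exact plus length reads, from 8.88% to 11.9% in single libraries. Exact reads held 62.8% ± 1.63, reads trimmed at the 3′ end 21.01% ± 1.55, and reads with a shifted 5′ start 5.59% ± 0.398. In all 18 libraries the longer share lay below the trimmed share, by a mean of 10.4 percentage points (-10.4 ± 1.83, SD, paired permutation test with 100000 resamples, p = 4e-05). Reads with 1 added base took 7.11% ± 0.641, with 2 added bases 2.48% ± 0.265, and with 3 added bases 0.993% ± 0.158. Of the 298 forms, 164 were seen in all 18 libraries, 223 averaged at least 10 reads, and 25 were seen in 1 library only.

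A few miRNAs held most of these reads. miR-10b, which lies in a HOX gene cluster and was the most abundant miRNA of this fat, supplied 29.3% ± 3.10 of all longer reads, and the 4 miRNAs with the most longer reads together supplied 72.4% ± 2.26. The most abundant single form was miR-10b +G at a mean of 22200 CPM, where CPM is reads per 1000000 over distinct sequences. Its level ran from 21100 to 27520 CPM in high pigs (median 25350) and from 16670 to 22930 in low pigs (median 20770). All 9 high pigs lay above the low median, but the ranges overlapped. miR-143-3p +G, from a miRNA known to promote fat cell differentiation, averaged 13540 CPM, with 11700 to 16440 in high and 9040 to 16770 in low pigs. miR-30a-5p +CT, of another family known to promote it, averaged 12370 CPM, with 7890 to 16710 in high and 8235 to 14930 in low pigs. let-7i +GTT averaged 7953 CPM, with 5494 to 10110 and 6656 to 9292. For each of these 3 forms the range of 1 class covered that of the other. miR-10a-5p +G followed at 3635 CPM, miR-10b +GT at 3202, miR-21 +C at 2246, miR-21 +CT at 2112 and miR-30a-5p +C at 1982. The next 11 forms in order were miR-199b-5p +C (1186 CPM), miR-451 +T (1173 CPM), let-7i +GT (1093 CPM), miR-92a +T (965 CPM), miR-191 +T (918 CPM), miR-125a +A (867 CPM), let-7a +T (800.3 CPM), miR-27b-3p +A (724 CPM), miR-195 +A (681 CPM), let-7f +T (622 CPM) and miR-30c-5p +T (620.2 CPM). Levels of different forms are read counts without correction for how well each sequence enters a library.

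Each length of extension had its own leading bases, and a few miRNAs held most reads of each. G was the added base in 69.0% ± 2.99 of reads with 1 added base, T in 14.8% ± 2.23, C in 10.7% ± 1.44 and A in 5.46% ± 0.673. By number of forms the order was different: 68 forms added T, 40 G, 31 A and 30 C. CT made up 71.2% ± 3.39 of reads with 2 added bases and GT 24.0% ± 3.18, led by miR-30a-5p and miR-10b. let-7i +GTT alone held 97.7% ± 1.28 of reads with 3 added bases, ahead of miR-146b +TGT (107 CPM) and miR-190a +TTG (25.7 CPM).

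The 6250 precursor positions covered by exact and length entries carried 1 base each. Reads with a non-matching base are listed apart as mismatches, so this follows from the categories and tests nothing about the added bases. Forms with 1 base added could also be set beside forms of the same length whose last base did not match the hairpin, which the table lists as mismatches. Templated forms made up 44.7% ± 3.21 of the reads that were the exact sequence plus 1 base, with G at 30.9% ± 2.73, T at 6.60% ± 0.921, C at 4.80% ± 0.759 and A at 2.44% ± 0.360. Non-matching forms were mostly T, at 43.9% ± 3.99, and A, at 10.9% ± 0.928, with G at 0.287% ± 0.0700 and C at 0.213% ± 0.0180. In these sums of reads, G and C were thus read far more often where the hairpin holds them, and T and A more often where it does not. A few abundant forms, led by miR-10b +G, weigh most in such sums, which give no rate per miRNA. Forms that added only A or only T numbered 124 and held 13.8% ± 1.65 of the longer reads. A matching base added after cutting would look the same there. That count leaves out +CT, +GT and +GTT, which lead among the longer additions, and their last T could likewise have been added after cutting.

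How much of a miRNA was longer varied from almost none to almost all. Over the 122 miRNAs that averaged at least 20 longer and 20 other reads, the mean share ran from 0.0290% to 98.7% with a median of 14.96% and quartiles of 3.41% and 36.9%. The share exceeded 1% in 103 of them, 10% in 69, 50% in 22 and 90% in 5. A longer form was the most abundant of all exact and length forms for 28 of the 122, against 70 led by the exact form, 20 by a trimmed form and 4 by a form with a shifted start.

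The 15 miRNAs with the most reads covered nearly that whole range. Shares of their own exact plus length reads were 8.55% ± 1.29 for miR-10b, 11.6% ± 1.33 for miR-143-3p, 0.646% ± 0.157 for miR-148a-3p and 1.86% ± 0.347 for miR-27b-3p. For miR-10a-5p the share was 14.3% ± 1.78, for miR-191 3.44% ± 0.414, for miR-30a-5p 61.8% ± 3.77 and for miR-126-5p 0.175% ± 0.0522. It was 4.76% ± 0.685 for let-7a, 0.364% ± 0.0802 for miR-181a, 33.7% ± 5.30 for miR-21 and 6.60% ± 0.595 for let-7f. let-7i stood at 95.7% ± 0.485, miR-16 at 4.83% ± 1.04 and miR-125a at 11.6% ± 2.10. Neighbours such as miR-143-3p and miR-125a, or let-7a and miR-16, differed by less than their spread over animals, whereas the gap between let-7i and let-7a was far beyond it.

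The 15 most read of the 22 miRNAs above 50% included miRNAs known in fat and in inflammation. The highest shares among these 15 were those of miR-146b (98.7% ± 0.370), miR-190a (97.8% ± 1.24), let-7i (95.7% ± 0.485) and miR-769-5p (92.3% ± 0.550). miR-339-5p stood at 86.3% ± 1.71, miR-500 at 86.0% ± 2.58, miR-155-5p, a miRNA of inflammation, at 85.1% ± 1.99, and miR-20a at 83.3% ± 3.40. miR-30c-5p (76.5% ± 4.61) and miR-199b-5p (76.2% ± 2.50) were close to each other, followed by miR-296-3p (63.2% ± 4.63), miR-30a-5p (61.8% ± 3.77), miR-148b-5p (61.7% ± 3.61), miR-196a (57.1% ± 3.46) and miR-214 (52.5% ± 2.26). For these miRNAs the annotated sequence was the minor product: exact reads were 0.784% of let-7i, 1.19% of miR-146b and 2.65% of miR-30a-5p.

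The longer share tended to be lower for longer annotated sequences, though not at every step of length. let-7i is annotated with 19 bases, and its dominant +GTT form has 22, the annotated length of let-7a. miR-199a-5p is annotated with 23 bases and had a longer share of 3.12% ± 0.792, while miR-199b-5p, annotated with 22, reached the same 23 bases as its +C form. Over the 122 miRNAs the median share was 34.1% for the 35 annotated with up to 21 bases and 9.76% for the 68 with 22 bases. For the 14 with 23 bases it was 11.8%, above that at 22, and for the 5 with 24 bases 3.70% (Spearman rho -0.326 across miRNAs, which share libraries and are not independent replicates). Where a longer form led, the median annotated length was 21 bases and the median length of the leading form 23, with 21 of 28 leading forms at 22 or 23 bases. Where the exact form led, 54 of 70 had 22 or 23 bases as well. Reads of 22, 23 and 24 bases made up 28.9% ± 3.03, 44.8% ± 2.59 and 24.6% ± 2.30 of all longer reads.

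miRNAs with the same seed could differ widely. In the let-7 family 8 members were assessed: let-7i stood at 95.7%, let-7a, let-7c, let-7d-5p, let-7f and let-7g between 4.76% and 6.68%, let-7e at 1.52% and miR-98 at 0.0766%. miR-30b-5p had 0.756% beside 61.8% for miR-30a-5p and 76.5% for miR-30c-5p. miR-146a-5p had 2.86% beside 98.7% for miR-146b, and miR-181a 0.364% beside 37.1% for miR-181c. miR-16 had 4.83%, whereas miR-195 and miR-497, which share its seed and come from 1 cluster, had 48.0% and 42.7%. miR-23a (25.1%) and miR-23b (25.4%) were alike.

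miRNAs of the 5p arm had a median longer share of 15.4% ± 2.06 over 74 miRNAs and those of the 3p arm 11.9% ± 0.773 over 48 (SD over 18 libraries). The 5p median was higher in 17 of 18 libraries, by 3.51 ± 1.98 percentage points (SD, paired permutation test with 100000 resamples, p = 4e-05). Pooled reads gave the same order, at 12.8% ± 1.15 and 7.01% ± 0.769. Among miRNAs with at least 100 longer and 100 other reads (60 of 5p and 35 of 3p) the order turned, to 14.3% ± 1.57 and 19.2% ± 1.39 (difference -4.93, p = 4e-05 by the same paired permutation test), so the direction depended on which miRNAs were assessed. Both p-values cover the spread over libraries and not that over miRNAs. miR-451, which is cut by Ago2 without Dicer, had 47.8% longer reads, nearly all miR-451 +T (46.2% ± 7.17).

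Some miRNAs have the same mature sequence in several hairpin copies, and their longer forms are listed by the copy whose bases they match. Of 44 longer forms under 19 miRNAs with several precursors, 28 were listed under 1 copy only, and 7 miRNAs had such forms under both copies. Forms listed under let-7a-2 held 86.6% ± 1.97 (SD, n = 18) of the let-7a reads listed under 1 copy, those under let-7f-1 93.9% ± 0.790 of those of let-7f, mir-92a-1 98.5% ± 0.320 of those of miR-92a, mir-101-1 99.1% ± 0.630 of those of miR-101, mir-103-2 99.4% ± 1.5 of those of miR-103 and mir-196a-2 99.9% ± 0.300 of those of miR-196a. Those under mir-128-1 held 69.0% ± 11.8 of those of miR-128. The forms of the other copy averaged only 2.2 reads for miR-103 and 0.7 for miR-196a. The lowest listed counts were 2 or 3, so the shares of these 2 miRNAs are limited by that floor. In all 7 the most read form of the leading copy ends in A or T, as in let-7f +T and miR-92a +T, the bases most often read where the hairpin does not hold them. An A or T added to the product of the other copy would give the same read; its part in these shares was not tested.

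High and low backfat were compared first by the share of longer reads in the whole library. It ran from 10.1% to 11.9% in high pigs (median 11.2%, mean 11.1% ± 0.645, n = 9) and from 8.88% to 10.9% in low pigs (median 10.17%, mean 10.1% ± 0.558, n = 9). In 5 high pigs it was above every low pig and in 4 low pigs below every high pig, while the others overlapped. The difference of 1.02 percentage points passed an exact two-sided permutation test (p = 0.00247, adjusted p = 0.00617 over 5 measures). In bulk tissue, a different mix of cell types and a different longer share within cells cannot be told apart. Reads with 1 added base were higher in high pigs, at 6.90% to 8.24% (median 7.43%) against 5.81% to 7.16% (median 6.86%), a difference of 0.812 percentage points (exact permutation p = 0.00156, adjusted p = 0.00617), with all 9 high pigs above the low median. With 2 added bases the means were 2.59% ± 0.182 and 2.38% ± 0.303 (exact permutation, adjusted p = 0.159) and with 3 they were 0.993% ± 0.200 and 0.992% ± 0.115 (exact permutation, adjusted p = 0.989). let-7i +GTT held 97.7% of reads with 3 added bases, so that last comparison turns on 1 form. The median share over the 122 miRNAs was 14.5% ± 1.95 and 13.7% ± 1.01 and did not pass (exact permutation, adjusted p = 0.334). That difference of 0.836 percentage points was 0.0461 with mismatch forms in the denominator and 1.26 without high replicate 1.

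miR-10b and miR-21 carried most of the pooled difference. Longer reads of miR-10b added 0.554 and those of miR-21 0.322 of the 1.02 percentage points, 85.8% of it together; over all miRNAs with longer reads, 106 added to it and 64 took from it. Without miR-10b the difference was 0.533 percentage points and no longer passed (exact permutation p = 0.0288, adjusted p = 0.144). For reads with 1 added base it was 0.327 without miR-10b, which did not pass either (exact permutation, adjusted p = 0.187). With every miRNA held at its mean share of reads, it was 0.940 (high 11.1% ± 0.614, low 10.1% ± 0.651, exact permutation p = 0.00448), and with every miRNA held at its mean longer share it was 0.0801 (exact permutation p = 0.597). Library codes fall into 4 runs of consecutive numbers, and in each run the high pigs had the larger mean: 10.3% (1 library) against 9.65% (3 libraries), 11.0% against 10.5% (2 and 2), 11.5% against 10.1% (4 and 2), and 10.7% against 10.3% (2 and 2). Exact permutation within these runs gave p = 0.00556. The trimmed share (20.8% ± 1.76 and 21.2% ± 1.37, exact permutation p = 0.551) and the exact share (62.5% ± 1.33 and 63.1% ± 1.93, exact permutation p = 0.512) did not pass.

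Within single miRNAs, limma on the log2 ratio of longer to other exact plus length reads, with sex as a covariate, called 12 of 122 between the classes (9.84%), all 12 with a larger longer share in high pigs. miR-196b and miR-196b-5p name the same reads, so these are 11 separate sets of reads. Over all 122, the log2 difference was positive in 72 and its median was 0.07. At an unadjusted p under 0.05 stood 22, of which 20 were higher. The 12 come from several groups. miR-10a-5p, miR-10b and the miR-196b pair come from HOX clusters, miR-199a-5p and miR-199a-3p are the arms of hairpins known from mesenchymal cells, and miR-21, miR-30c-5p and miR-103 are known to promote fat cell differentiation. miR-127 comes from an imprinted cluster, miR-497 is the partner of miR-195, and miR-1296-5p had the fewest reads of the 12. With reads listed under several miRNAs left out, 8 were called, all among the 12. The most abundant longer form added A or T for miR-30c-5p, miR-199a-5p, miR-497, the miR-196b pair, miR-103 and miR-1296-5p. It added G or C for miR-127, miR-21, miR-199a-3p, miR-10a-5p and miR-10b. A matching A or T added after cutting would look the same as a templated one, and its part in these calls was not tested.

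For miR-127 the longer share ran from 0.609% to 0.958% in high pigs (median 0.900%) and from 0.348% to 0.730% in low pigs (median 0.617%). In 7 high pigs it was above all low pigs. The log2 difference was 0.59 ± 0.12 (SE, adjusted p = 0.0108). For miR-21 it ran from 32.7% to 40.7% (median 38.4%) and from 24.9% to 35.6% (median 29.8%), with 8 high pigs above all low pigs and a log2 difference of 0.53 ± 0.11 (SE, adjusted p = 0.0108). miR-30c-5p had 76.6% to 85.1% (median 79.1%) and 69.4% to 78.1% (median 71.7%). Again 8 high pigs were above all low pigs, and the log2 difference was 0.54 ± 0.12 (SE, adjusted p = 0.0173).

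miR-199a-5p had 3.00% to 4.43% (median 3.73%) in high and 1.53% to 3.83% (median 2.61%) in low pigs, with a log2 difference of 0.59 ± 0.15 (SE, adjusted p = 0.0268), and only 2 high pigs above all low pigs. miR-497 had 42.1% to 49.2% (median 45.8%) and 34.5% to 45.2% (median 39.4%), and miR-196b 34.0% to 43.1% (median 39.7%) and 29.3% to 37.1% (median 34.6%), each with a log2 difference of 0.32 ± 0.09 (SE, adjusted p = 0.0386). miR-10a-5p had 14.3% to 17.2% (median 15.3%) and 9.95% to 14.9% (median 13.2%), with 6 high pigs above all low pigs. miR-10b had 8.21% to 10.7% (median 9.20%) and 5.62% to 8.92% (median 7.87%), again with 6. Their log2 differences were 0.30 ± 0.09 and 0.33 ± 0.10 (SE, adjusted p = 0.0386 each). Classes overlapped in all of these miRNAs.

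Among the less extended miRNAs, miR-199a-3p had 0.0775% to 0.123% (median 0.105%) in high and 0.0482% to 0.0984% (median 0.0719%) in low pigs (0.53 ± 0.15, SE, adjusted p = 0.0386). miR-103 had 1.09% to 2.13% (median 1.38%) and 0.808% to 1.30% (median 1.10%), a log2 difference of 0.43 ± 0.13 (SE, adjusted p = 0.0406). miR-1296-5p had 32.5% to 48.2% (median 39.5%) and 14.2% to 37.4% (median 31.4%), with 0.66 ± 0.20 (SE, adjusted p = 0.0497). The next in order of p, miR-27a, pointed the other way and did not pass (-0.51 ± 0.17, SE, adjusted p = 0.0843), with shares of 0.142% ± 0.0381 in high and 0.204% ± 0.0478 in low pigs.

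These calls were unequally stable. miR-127, miR-21 and miR-30c-5p passed without each of the 18 libraries in turn, and miR-1296-5p in 4 of 18 such fits, and the log2 difference was positive in every fit made for all 12. The 12 called with all libraries shrank to 3 when any of high replicates 5, 7 and 8 or low replicates 6, 7 and 9 was left out. Leaving out replicate 3 of either class left 4, high replicate 6 left 5, low replicate 4 left 6, and high replicate 4 left 7. With the runs of library codes as a covariate 3 were called, of which miR-127 and miR-21 were among the 12 and miR-125a was not. Without the 4 libraries coded AC485 to AC488, chosen after seeing the data, 7 were called, 5 of them among the 12.

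In the fit of the 4 cells of sex by class, the share differed between classes in 14 of 122 miRNAs in castrated males (11.5%, 13 of them higher in high pigs) and in 0 of 122 in females (0%, lowest adjusted p = 0.774). Fitted alone, castrated males had 0 called by limma (18 at an unadjusted p under 0.05) and females 0 (19). The difference of the class effects itself was called for 0 of 122 by limma (0%, 6 at an unadjusted p under 0.05, lowest adjusted p = 0.807; edgeR also called 0), so the sexes are not shown to differ. The 12 called miRNAs had positive log2 differences in both sexes, which their choice by the class effect over both sexes favours. For miR-21 the class means were 38.9% and 28.0% in castrated males and 36.3% and 31.1% in females. The lowest p for the difference between the sexes belonged to miR-186, miR-210, miR-30b-5p, the miR-196b pair and miR-23b, with log2 values of -0.60, 0.86, 0.64, 0.37 and -0.54 (castrated males minus females, limma adjusted p from 0.807 to 0.850). In the pooled share, the high class was above the low class by 1.26 percentage points in castrated males (11.0% ± 0.845, n = 5, and 9.73% ± 0.624, n = 4, exact two-sided permutation p = 0.0476) and by 0.870 in females (11.2% ± 0.349, n = 4, and 10.3% ± 0.351, n = 5, exact permutation p = 0.0238). Both p-values are unadjusted over the 5 measures, so passing the threshold is not shown for either sex alone.

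Castrated males and females did not differ past the threshold in any of these measures. The pooled share was 8.88% to 11.9% in castrated males (median 10.3%) and 9.96% to 11.6% in females (median 10.8%), a difference of -0.295 percentage points (exact two-sided permutation p = 0.443, adjusted p = 0.698). It was -0.100 without low replicate 7, -0.188 without high replicate 6, -0.468 without high replicate 5 and -0.484 without high replicate 8, and passed in none of these. Of the 122 miRNAs, 0 were called between the sexes by limma (0%) and 0 by edgeR (6 at an unadjusted p under 0.05, limma). The lowest p belonged to miR-155-5p (log2 difference 0.30 ± 0.09, SE, adjusted p = 0.618), followed by miR-127 (-0.32), let-7f (0.15), miR-181c (0.15), miR-452 (-0.53) and miR-338 (0.30).

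The abundance of the longer forms, as opposed to their share, was tested over all entries of the table with edgeR's quasi-likelihood test. An entry is 1 sequence under 1 precursor and 1 mature miRNA, so a form can be listed more than once. Between the classes 0 of 7330 entries were called (0%) and 0 of the 241 listings of longer forms, which passed the filter on low counts. At an unadjusted p under 0.05 stood 45 of 241 listings (18.7%), 32 of them higher, against 643 of 7330 entries (8.77%), of which 330 were higher (4.5%). The median log2 difference was 0.11 over the listings and -0.01 over all entries. DESeq2's Wald test called 19 of the 241 listings (17 higher) against 258 of 7330 entries (3.52%), and edgeR on entries with a mean of at least 10 CPM called 4 of 110 listings against 59 of 1837 entries (3.21%). Without 1 library edgeR called 6 entries (high replicate 6 left out, 2 of them longer forms), 26 (high replicate 7), 29 (low replicate 2) and 2 (low replicate 4).

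The lowest p belonged to miR-103 +AA, at 7.36 to 28.3 CPM in high pigs (median 14.0) and 4.58 to 8.73 in low pigs (median 6.51). The ranges overlapped little, but the log2 difference of 1.04 ± 0.22 did not pass over all entries (SE, edgeR adjusted p = 0.0754). miR-221-3p +CA followed, with 1.53 to 2.70 and 0.597 to 1.33 CPM, ranges that did not meet, and a log2 difference of 0.83 ± 0.19 (SE, edgeR adjusted p = 0.107). miR-21 +C had 976 to 4813 CPM in high (median 2867) and 1321 to 1959 in low pigs (median 1604), and miR-21 +CT 929.9 to 4694 (median 2609) and 980.2 to 2027 (median 1433). The high class held both the lowest and the highest animal for each of these miR-21 forms, and their log2 differences were 0.82 ± 0.21 and 0.91 ± 0.24 (SE, edgeR adjusted p = 0.130 and 0.149). miR-103 +A and miR-146b +TG stood at 0.49 ± 0.13 and 1.17 ± 0.32 (SE, edgeR adjusted p = 0.150 and 0.171).

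For the 12 miRNAs with a called share, the abundance of the exact and of the longer form was set side by side. The exact entry had a log2 difference below 0 in 10 of 12, and the most abundant longer form was above 0 in 9 of 12. The longer form exceeded the exact one in all 12. The choice by share fixes the last of these counts and favours the others, so none of them is evidence of its own. The 12 are 11 separate sets of reads, since miR-196b and miR-196b-5p name the same reads. Values were 0.27 ± 0.08 for miR-10b +G and -0.12 ± 0.10 for exact miR-10b, 0.24 ± 0.09 and -0.13 ± 0.12 for miR-10a-5p, 0.20 ± 0.18 and -0.34 ± 0.11 for miR-199a-5p, and 0.82 ± 0.21 and 0.43 ± 0.21 for miR-21 (log2, SE). None of these single forms passed edgeR's test over all entries.

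Between castrated males and females 0 of 7330 entries (0%) and 0 of 241 listings were called by edgeR, with 6 listings (2 higher in castrated males) and 366 entries (4.99%, and 0.668% higher) at an unadjusted p under 0.05. DESeq2 called 1 listing and 25 entries (0.341%). The lowest p belonged to miR-127 +G (log2 -0.81 ± 0.20, SE, edgeR adjusted p = 0.776), miR-146b +TGT (1.13), miR-146b +TG (0.93), miR-143-5p +TC (-0.73), miR-125b +T (-0.63) and miR-432-5p +G (-1.91).

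Lists of miRNAs by known role were described by counts. Of 11 assessed miRNAs known to promote fat cell differentiation, 3 were called and higher in share in high pigs (miR-21, miR-30c-5p and miR-103), beside 12 of all 122 (9.84%). In that list 8 were positive, and the median log2 difference was 0.25 against 0.07 over all 122. The most abundant of the others were miR-143-3p, with 11.4% ± 1.42 in high and 11.8% ± 1.29 in low pigs, miR-148a-3p, with 0.641% ± 0.160 and 0.651% ± 0.163, and miR-30a-5p, with 63.7% ± 3.60 and 59.8% ± 2.91. Of 13 known to restrain it, none passed limma's test, 7 were positive and the median was 0.01. miR-27b-3p had 1.998% ± 0.363 in high and 1.73% ± 0.288 in low pigs, let-7a 4.53% ± 0.859 and 4.99% ± 0.377, let-7f 6.41% ± 0.559 and 6.78% ± 0.603, and let-7i 95.8% ± 0.354 and 95.7% ± 0.600. The let-7 members of this list thus stood on both sides of 0. The furthest from 0 among them was let-7a, with a log2 difference of -0.186 ± 0.0951 (SE, limma adjusted p = 0.342).

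Of 4 in the list of miR-10 and HOX cluster miRNAs, 3 were called (miR-10a-5p, miR-10b and miR-196b-5p) and the median was 0.31, beside 12 of 122 (9.84%) and 0.07 over all. The fourth, miR-196a, had 57.1% ± 4.42 in high and 57.2% ± 2.44 in low pigs. Of 6 mesenchymal and matrix miRNAs 2 were called, the miR-199a arms, and the median was 0.09, again beside 9.84% and 0.07 over all. miR-199b-3p had 0.683% ± 0.0574 and 0.685% ± 0.0414, and miR-199b-5p 77.1% ± 2.02 and 75.3% ± 2.69. Among the marker miRNAs of other cell types none passed. Of muscle, miR-133a-3p had 43.8% ± 4.50 in high and 44.1% ± 3.80 in low pigs and miR-499-5p 18.7% ± 4.30 and 16.7% ± 2.87. The 3 red blood cell miRNAs had negative differences with a median of -0.23, with miR-451 at 46.0% ± 7.01 and 49.6% ± 7.96, miR-486 at 0.950% ± 0.125 and 1.08% ± 0.181, and miR-144 at 18.3% ± 3.58 and 22.2% ± 8.03. Of white blood cells, miR-142-5p had 0.671% ± 0.186 and 0.655% ± 0.147, miR-150 1.06% ± 0.185 and 1.07% ± 0.294, and miR-142-3p 33.3% ± 6.73 and 26.7% ± 6.26. The endothelial miR-126-5p had 0.193% ± 0.0670 and 0.157% ± 0.0243 and miR-126-3p 0.0276% ± 0.0321 and 0.0304% ± 0.0396. miR-205 of epithelium had 36.2% ± 5.94 and 33.2% ± 8.28, and miR-128 of neurons 26.5% ± 3.71 and 29.4% ± 5.68. No longer form of miR-122 of liver was listed.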

How the data were processed

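Small RNA of 18 backfat samples was made into libraries with the TruSeq Small RNA kit and read as single ends on an Illumina GAII, per the labels' protocols. The deposited raw table holds the authors' counts, in whole reads for every sequence, precursor and mature miRNA. Their second table holds a signal, the deposited normalised count, which was the raw value over a constant of each library. Per the submitters' processing notes, the tools were Bowtie 0.12.7, HTSeq and DESeq2 1.4.5 and the build Sscrofa10.2; how adapters were trimmed is not given in the sources used here. Among nonzero values, the lowest count was 2 in 5 libraries and 3 in 13, so smaller counts had been set to 0 before deposit, which lowers the shares of rare forms most. Each table has 2 columns that belong to no listed sample, and these were left out.

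Repeated listings of a sequence under 1 miRNA were reduced to the highest; 13 longer forms counted under more than 1 miRNA. Shares were taken over exact plus length reads. The share per miRNA was tested with limma 3.58.1 on log2 of (longer + 0.5)/(other + 0.5), for at least 20 longer and 20 other reads on average, so a miRNA could pass through 1 class; entries with edgeR 4.0.16 (filterByExpr with a minimum count of 10, TMM, quasi-likelihood F test); both with the other factor (sex or backfat class) as a covariate, Benjamini-Hochberg adjustment over all tested and a threshold of 0.05. R 4.3.3, DESeq2 1.42.0, Python 3.11.15, pandas 2.3.3, NumPy 2.4.6 and SciPy 1.17.1 were used. Values per library were tested by exact two-sided permutation of 9 against 9 (48620 splits), adjusted over 5 measures. Fits were tested on simulated data. There the mean share of false calls of the share fit lay slightly above the threshold, by less than its standard error, and the limit of that check was changed during the work to allow for this error. The members, lists and tests were chosen with earlier results of these data known. Named items were the 20 most abundant forms, the 15 miRNAs with the most reads, the 15 of most reads among those above 50%, the 3 most abundant per number of bases added, the 4 most abundant assessed of each list, all called if 20 or fewer, and the 6 lowest p where none passed; further ones named for a contrast, such as seed relatives, were picked with their values in view. Alternatives changed the pseudocount, filters, denominator, tool, scaling, covariates and libraries; leaving out the AC485 to AC488 libraries, permuting within runs of codes and the fixed makeup were added after seeing the data. No genome of the build was used, so no coordinates are given.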

Additional observations from a re-analysis of the deposited data

Results flagged for a closer look

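Among 82 groups of 9 samples, 7 held a sample apart from the other 8, with a gap to its neighbour, as a part of the group's range, above Dixon's critical value for 9 samples. Chance gives about 1 in 20 groups. Low replicate 7 accounted for 3 of them, with a longer share of 14.2% for miR-1296-5p (others 28.3% to 37.4%), 0.593% for miR-181a (others 0.278% to 0.352%) and 8.16% for let-7f (others 5.85% to 6.90%). The same library had the lowest pooled share, 8.88%. In the high class, the share of miR-148a-3p was 1.02% in replicate 9 (others 0.473% to 0.711%), that of miR-196a 46.9% in replicate 4 (others 55.6% to 63.4%), that of miR-148b-5p 55.9% in replicate 1 (others 61.1% to 66.4%), and that of miR-190a 100% in replicate 6 (others 96.7% to 98.2%).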

How the results depend on the processing

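The number of miRNAs called by share between the classes (12) was 4 without a filter on low counts, 3 with the runs of library codes as a covariate, 7 without the 4 libraries coded AC485 to AC488, 0 in females alone, 0 in castrated males alone, and 3 to 13 without 1 library. Entries called between the classes (0 by edgeR) numbered 2 with DESeq2 size factors, 59 at a mean of at least 10 CPM, 258 by DESeq2, 8 by limma on the normalised counts, and 0 to 29 without 1 library; longer forms among them numbered 4 at 10 CPM, 19 by DESeq2, and 0 to 2 without 1 library. Between the sexes DESeq2 called 25 entries and 1 longer form. The pooled difference of 1.02 percentage points was 0.533 without miR-10b, and otherwise passed. The difference with 3 added bases changed sign, to -0.0328 without miR-10b and -0.00193 on reads of 1 miRNA only, and lay between -0.0307 and 0.0420 without 1 library; between the sexes it was 0.00924 without miR-10b and between -0.0673 and 0.00541 without 1 library. The median of 5p minus 3p arms became -4.93 at 100 reads. The causes were not tested. The longer and trimmed shares kept their order without miR-10b. Replicate numbers were given in accession order and pair no animals, so no fit was blocked on them. The runs of library codes, which hold both classes, served as a covariate and as strata. Depth limits the rarest forms, since counts of 1 are not listed, nor are counts of 2 in 13 of the 18 libraries.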
